A study of Caenorhabditis elegans with 2 samples.

Results

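The genes described here are 42 protein-coding genes of Caenorhabditis elegans whose products write, erase or read marks on histones or move nucleosomes, and the data show how many of them carry a ZNF-207 peak at their start. They were listed by symbol, and all 42 symbols were found among the 19973 protein-coding genes of the nuclear chromosomes. The list holds 15 genes for histone methyltransferases and partners in their complexes, 9 for demethylases and a partner, 4 for enzymes that add or remove acetyl groups, 7 for heterochromatin and chromodomain proteins and 7 for remodelling complexes. The other 19931 protein-coding genes serve as the comparison.

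The study mapped where ZNF-207 (gene B0035.1), a zinc finger protein, sits on the genome. Chromatin from whole animals was sheared by sonication and immunoprecipitated with an antibody against GFP, and the recovered DNA was sequenced (ChIP-seq). There was 1 group of 2 biological replicates: young adult hermaphrodites of the transgenic line xtl1186, collected 50 h after synchronization as starved L1 larvae and carrying ZNF-207 fused at its C-terminus to GFP and FLAG. The limits of this design are that all animals carry the same transgene, that whole animals mix all tissues and the germline, and that no control samples were analysed here. The antibody field of the labels names B0035.1 itself.

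DNA in the nucleus is wrapped around histone proteins, and enzymes that add or remove methyl and acetyl groups on the histone tails set how accessible a gene is. In general, methylation of H3K4 and acetylation mark active promoters, methylation of H3K36 marks transcribed gene bodies, and methylation of H3K9 and H3K27 goes with silent chromatin. In C. elegans these enzymes are best known from the germline, where they carry the memory of active and silent genes, and from vulval development, where the synMuv genes encode repressive complexes.

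Peaks came as 4 lists in the ce11 build: 1 thresholded list of 750 peaks, 1 pooled list of 30000 peaks made from both replicates, and lists of 30000 peaks for replicate 1 and 25036 peaks for replicate 2. The thresholded list was selected by irreproducible discovery rate, per the labels, and its 750 peaks are the 750 strongest of the pooled list. Its peaks can still rank differently in the 2 replicates. The other lists hold peaks and background, per the labels. Each peak has a summit and a signal, and peaks are ranked by signal within their own list, with rank 1 the strongest. Signals are not compared in size between lists. A gene counts as having a summit when one lies in its promoter window, which runs from 500 bp upstream to 200 bp downstream of its outermost annotated start. Negative distances are upstream. Read counts are not part of the lists and the depth is unknown, and Wilson 95% intervals below cover the counting of genes only. Genes that share a summit are not independent, and no test was made.

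Of the 42 chromatin genes, 4 had a summit of the thresholded list in their promoter window, which is 9.52% (interval 3.77 to 22.1%). Among all other protein-coding genes 323 of 19931 did, which is 1.62% (interval 1.45 to 1.81%), and over all protein-coding genes the share was 1.64%. The 4 genes were set-16 and met-1 of the methyltransferases, the demethylase gene jmjd-1.2 and the chromodomain gene mrg-1. In a window of 200 bp upstream to 100 bp downstream, or with each summit given only to its nearest start, set-16 and met-1 remained, 2 of the 42, against 0.773% and 1.32% of the other genes. None of the 4 acetylation genes and none of the 7 remodelling genes had one. With 4 to 15 genes in a role the intervals are wide and overlap: 3.74 to 37.9% for methyltransferases, 1.99 to 43.5% for demethylases, up to 49.0% for acetylation, 2.57 to 51.3% for heterochromatin and up to 35.4% for remodelling.

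**Figure D1:**
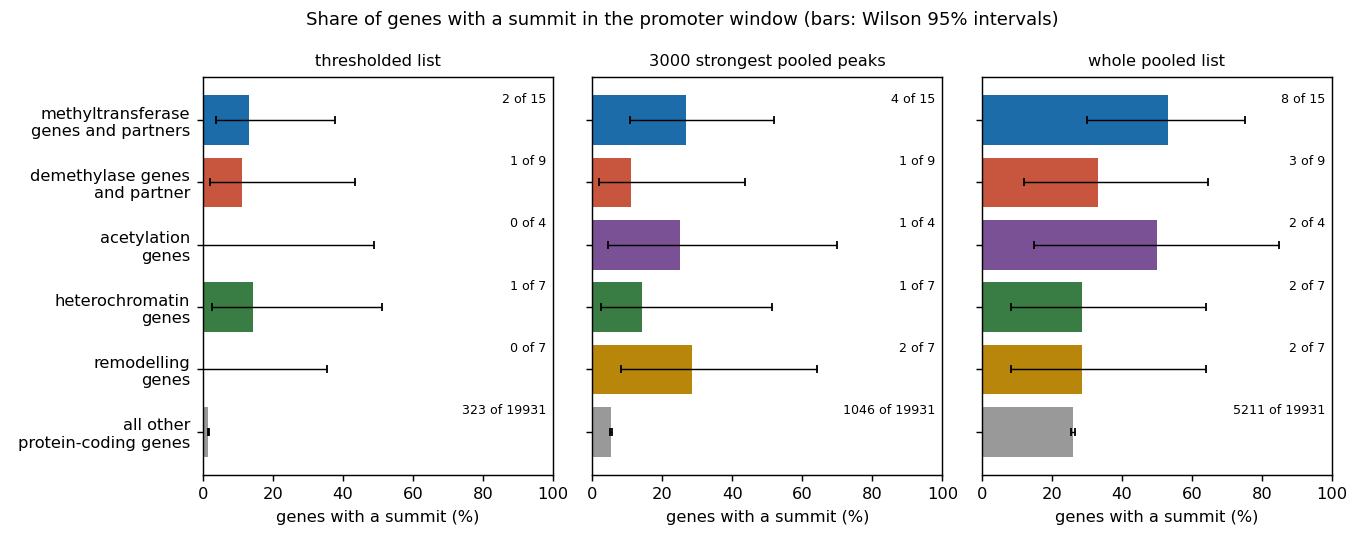
Share of genes (%) with a summit in the promoter window, for each role and for all other protein-coding genes, in the thresholded list, the 3000 strongest pooled peaks and the whole pooled list. Bars give the share, lines the Wilson 95% interval, and the intervals of the 5 roles overlap in each panel.

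The highest-ranking chromatin gene was set-16, which encodes the counterpart of the mammalian MLL3 and MLL4 enzymes that methylate H3K4. Its summit had a signal of 230.4 and rank 58 in the pooled list, a signal of 141.5 and rank 64 in replicate 1, and a signal of 90.6 and rank 64 in replicate 2. The summits of the 3 lists lay 162, 156 and 161 bp upstream of the start, 6 bp apart at most. The 2 replicates thus placed it at the same rank and nearly the same base. The peak covered 241 bp, chrIII:13643594-13643834, between genes. The same summit lay 184 bp from the start of drr-2, a gene read in the opposite direction whose start is 346 bp away, so the list cannot tell which of the pair it belongs to.

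Sequence from 75 bp before to 75 bp after the pooled summit is shown for set-16, jmjd-1.2 and mrg-1, because their thresholded summits are each shared with the window of an opposite gene. Each is written 5′ to 3′ in the direction of the gene, from the RefSeq WBcel235 genome (ce11): chrIII:13643679-13643829, plus strand, for set-16, chrIV:4660437-4660587, plus strand, for jmjd-1.2, and chrIII:12874807-12874957, minus strand, for mrg-1. Capitals mark matches on either strand to any of the words GAGAC, its longer form GAGACGCAG, the word GAGAGA, the word GCGCG and the word TTTGAA.
set-16: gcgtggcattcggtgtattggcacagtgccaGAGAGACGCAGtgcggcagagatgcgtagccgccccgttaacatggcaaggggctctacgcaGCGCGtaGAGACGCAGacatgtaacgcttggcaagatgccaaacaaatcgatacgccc
jmjd-1.2: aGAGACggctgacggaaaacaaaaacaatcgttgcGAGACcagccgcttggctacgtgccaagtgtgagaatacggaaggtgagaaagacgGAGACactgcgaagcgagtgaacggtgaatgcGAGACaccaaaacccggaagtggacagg
mrg-1: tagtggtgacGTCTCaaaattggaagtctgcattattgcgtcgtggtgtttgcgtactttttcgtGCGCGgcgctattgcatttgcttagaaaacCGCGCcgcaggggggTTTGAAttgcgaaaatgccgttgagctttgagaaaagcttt

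The word GAGAC was chosen after these sequences were read, so its count is a description only. It occurred in the summit windows of all 4 genes, met-1 included, with 4 copies at jmjd-1.2, 2 at set-16 and 1 each at met-1 and mrg-1. Among all 268 thresholded promoter summits 39.9% held it, among 5280 other pooled promoter summits 24.1%, and among windows of the same 151 bp placed 193 bp upstream of every protein-coding gene 18.5%. The longer word GAGACGCAG, which contains GAGAC, was also chosen after reading and occurred in 2 of the 4 windows, at set-16 in 2 copies and at met-1, against 6.72% of thresholded promoter summits, 2.80% of other pooled ones and 1.58% of the windows at all genes.

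Of 7 other words searched on both strands, GCGCG was in 2 of the 4 windows, those of set-16 and mrg-1, and in 34.3% of thresholded promoter summits, 13.8% of other pooled ones and 8.64% of the windows at all genes. GAGAGA, which can overlap GAGAC, was in the set-16 window alone, and in 24.3%, 13.8% and 11.1% of the same 3 sets. TTTGAA was in the mrg-1 window alone, and in 31.3%, 33.5% and 41.2%. The word CCCGCC was in none of the 4, nor was the E-box CACGTG, the GATA word TGATAA or the TATA word TATAAA, which says only that these letters are not in these windows. The GC content was 58.3% at set-16, 53.6% at jmjd-1.2, 51.0% at met-1 and 47.7% at mrg-1, a median of 52.3%. The median was 45.7% over thresholded promoter summits, 36.4% over other pooled ones and 33.8% over the windows at all genes.

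The other methyltransferase gene in the thresholded list was met-1, whose product methylates H3K36 in transcribed genes. Its summit had a signal of 112.4 and rank 396 in the pooled list, a signal of 72.2 and rank 424 in replicate 1, and a signal of 41.4 and rank 568 in replicate 2. The position was less sharp than at set-16: 44 bp upstream in the pooled list, 62 bp in replicate 1 and 147 bp in replicate 2, a spread of 103 bp. The peak, chrI:4253923-4254382, lay in no other promoter window, but the gene before it on the same strand, C43E11.12, ends 57 bp upstream of the met-1 start.

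Below the thresholded list, 2 more methyltransferase genes had a summit among the 3000 strongest pooled peaks. The H3K79 methyltransferase gene dot-1.1 had a pooled signal of 64.2 and rank 1632, 40.1 and rank 1949 in replicate 1, and 25.2 and rank 2503 in replicate 2. The gene for SET-2, the H3K4 methyltransferase of the COMPASS complex, had a pooled signal of 57.1 and rank 2141, 34.8 and rank 2794 in replicate 1, and 19.5 and rank 5377 in replicate 2. Both were present in each replicate, set-2 within 5 bp and dot-1.1 within 96 bp. The deposited −log10 q-value in the pooled list was 2.4 at dot-1.1 and 1.88 at set-2, and in replicate 2 it was 0.601 at set-2. At the other chromatin genes below the thresholded list the pooled value ran from 2.36 at mep-1 down to 0.091 at hda-3. It was 0.888 at mes-2, 0.587 at wdr-5.1, 0.298 at set-25 and 0.126 at set-1.

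The remaining 4 methyltransferase genes of the pooled list were weaker or uneven. The gene mes-2, which encodes the H3K27 methyltransferase of Polycomb complex PRC2, had a pooled signal of 43.1 and rank 4303, and in replicate 2 a signal of 31.6 and rank 1281, with no summit in the window in replicate 1. The COMPASS subunit gene wdr-5.1 ranked 6056 in the pooled list, 7063 in replicate 1 and 18054 in replicate 2. Its pooled summit lay 237 bp upstream, and the same-strand gene C14B1.3 ends 226 bp upstream. The H3K9 methyltransferase gene set-25 ranked 10320 in the pooled list and 5047 in replicate 1, and the H4K20 methyltransferase gene set-1 ranked 17727 and 11051, neither with a summit in replicate 2. The PRC2 subunit genes mes-3 and mes-6, the H3K36 gene mes-4, the H3K9 gene met-2, the H3K4 gene set-17, the small RNA silencing gene set-32 and the COMPASS subunit gene ash-2 had no summit in the window in any list. At met-2 a pooled summit with a signal of 65.9 and rank 1526 lay 287 bp downstream of the start, past the end of the window.

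Among the demethylase genes, jmjd-1.2 was in the thresholded list. Its product removes methyl groups from H3K9 and H3K27 and is known in C. elegans for its part in the mitochondrial stress response. Its summit had a signal of 125.2 and rank 280 in the pooled list, 79.4 and rank 310 in replicate 1, and 48.3 and rank 351 in replicate 2, within 19 bp. It lay 479 bp upstream, near the edge of the window, and was nearer to the opposite start of F29B9.11, 311 bp away. The peak was chrIV:4660282-4660741.

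The other demethylase genes were lower. The gene for UTX-1, a JmjC demethylase of H3K27, had a pooled signal of 45.1 and rank 3857, a signal of 22.5 and rank 8613 in replicate 1, and 29.0 and rank 1651 in replicate 2. The summits of the lists lay up to 152 bp apart there. The H3K4 demethylase gene rbr-2 ranked 19736 in the pooled list and 6408 in replicate 1, with none in replicate 2, and lsd-1, of the LSD1 family, had only a replicate 2 summit, at rank 7187. The JmjC genes jmjd-1.1, jmjd-2 and jmjd-3.1, the LSD1 gene spr-5 and its CoREST partner spr-1 had none in any list.

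Of the heterochromatin and chromodomain genes, mrg-1 was the only one in the thresholded list. Its product is the counterpart of mammalian MRG15 and is needed by the germline. The 2 replicates ranked its summit differently: it had a signal of 88.8 and rank 743 in the pooled list, 36.4 and rank 2507 in replicate 1, and 50.3 and rank 310 in replicate 2. The weakest peak of the thresholded list had a signal of 88.6, so mrg-1 stood just inside it. The position, 226 bp upstream in the pooled list, agreed within 9 bp. The peak, chrIII:12874652-12875111, was 149 bp from the opposite start of spcs-2, a signal peptidase subunit gene, and so nearer to it than to mrg-1. A weaker second pooled summit lay 425 bp upstream, at rank 9638.

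The synMuv gene lin-15B ranked 6135 in the pooled list, 6089 in replicate 1 and 18362 in replicate 2, with summits up to 229 bp apart. The gene for the HP1 protein HPL-2, which binds methylated H3K9, had only a replicate 2 summit at rank 20963, and that for its zinc finger partner LIN-13 only a replicate 1 summit at rank 27660. The other HP1 gene hpl-1, the H3K9 reader gene lin-61 and lin-65, whose product is a partner of MET-2, had none. The thresholded peak nearest to hpl-2, with a signal of 451.1 and rank 21, lay 3708 bp upstream and 69 bp from the start of tasp-1.

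The acetylation genes had no thresholded summit in the window. The class I deacetylase gene hda-2 was the highest, with a pooled signal of 50.4 and rank 2904, 27.9 and rank 4965 in replicate 1, and 23.7 and rank 2981 in replicate 2, within 19 bp. The pooled summit lay 321 bp upstream of hda-2, within the same-strand gene swsn-7, which ends 70 bp upstream of the hda-2 start. The related gene hda-3 ranked 21721 in the pooled list and 11079 in replicate 1, with no summit in replicate 2. The deacetylase gene hda-1 and the CBP and p300 acetyltransferase gene cbp-1 had none in the window.

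Of the remodelling genes, the zinc finger gene mep-1, whose product works with LET-418 in the MEC complex, had a pooled signal of 62.5 and rank 1732, 43.4 and rank 1593 in replicate 1, and 19.3 and rank 5630 in replicate 2. The SWI/SNF core subunit gene swsn-1 had a pooled signal of 60.9 and rank 1851 and a replicate 2 signal of 26.3 and rank 2209, 4 bp apart, with none in the window in replicate 1. The Mi-2 ATPase gene let-418 had only a replicate 1 summit, at rank 8538. The second Mi-2 gene chd-3, the NuRD subunit gene lin-40, the SWI/SNF ATPase gene swsn-4 and the ISWI gene isw-1 had none.

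**Figure D2:**
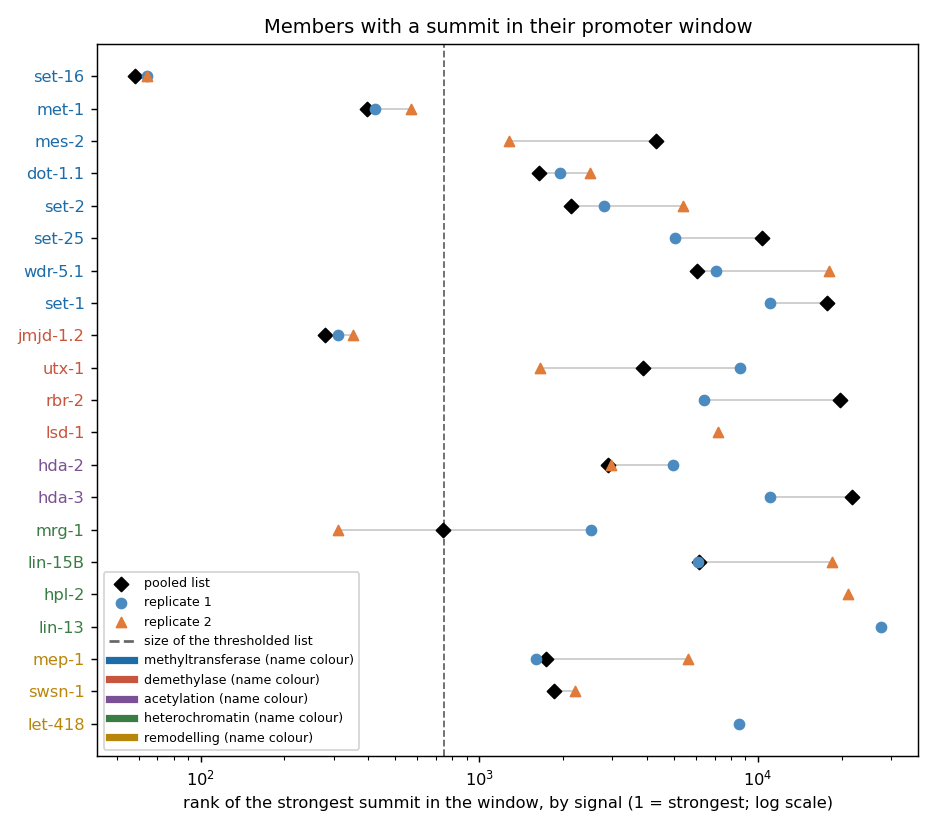
Rank by signal (log scale, 1 is strongest) of the strongest summit in the promoter window of the 21 chromatin genes with a summit in any list, with diamonds for the pooled list, circles for replicate 1 and triangles for replicate 2. The dashed line marks 750 peaks, the size of the thresholded list: set-16, jmjd-1.2 and met-1 lie left of it in every list, and mrg-1 in the pooled list and replicate 2.

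In the plot of ranks by gene, the replicates lie close together for set-16, jmjd-1.2 and met-1 and further apart for most genes below them. In all, 11 of the 42 chromatin genes (26.2%) had a summit in both replicate lists, against 2622 of the 19931 other genes (13.2%). A further 6 chromatin genes had one in replicate 1 alone and 4 in replicate 2 alone. No list held a summit for 21 of 42 chromatin genes, or 50%, against 12671 other genes, or 63.6%.

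The counts per list ran as follows. In the list of replicate 1, 17 of 42 chromatin genes had a summit (40.5%), against 25.9% of the other genes and 26% of all genes. In the list of replicate 2, 15 of 42 did (35.7%), against 21.6% of the others and 21.6% of all genes. The share of chromatin genes was higher than that of other genes in both replicates.

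With only the 750 strongest peaks of a replicate, the chromatin genes were 3 of 42 in replicate 1 (7.14%), against 1.58% of the other genes and 1.59% of all genes. In replicate 2 they were 4 of 42 (9.52%), against 1.37% of the others and 1.39% of all genes. The gene that fell outside in replicate 1 was mrg-1.

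In the pooled list, 9 of 42 chromatin genes (21.4%, interval 11.7 to 35.9%) had a summit among the 3000 strongest peaks, against 1046 others (5.25%) and 5.28% of all genes. In the whole pooled list 17 of 42 did (40.5%, interval 27 to 55.5%), against 5211 others (26.1%) and 26.2% of all genes. The ratio of the 2 shares was smaller with all 30000 peaks than with the 3000 strongest. By role, 8 of 15 methyltransferase genes, 3 of 9 demethylase genes, 2 of 4 acetylation genes, 2 of 7 heterochromatin genes and 2 of 7 remodelling genes were reached in the whole pooled list.

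**Figure D3:**
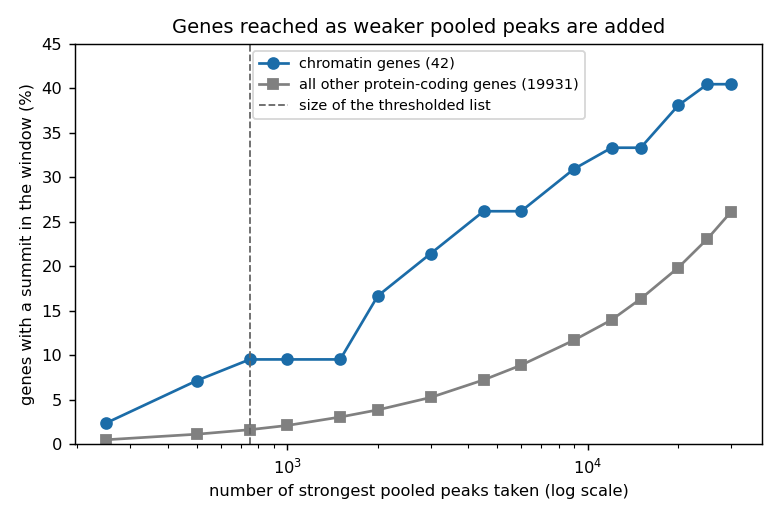
Share of genes (%) with a summit in the promoter window against the number of strongest pooled peaks taken (log scale), for the 42 chromatin genes (circles) and the 19931 other protein-coding genes (squares). The chromatin genes stand at 9.52% and the others at 1.62% at 750 peaks, and at 40.5% and 26.1% at 30000.

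In all 17 chromatin genes with a pooled summit, the strongest one lay upstream of the start, at a median of 271 bp (quartiles 357 and 162 bp upstream). The window itself reaches further upstream (500 bp) than downstream (200 bp). Weaker summits in the same window could lie downstream, as at mep-1, 89 bp downstream at rank 13117. Among other genes 3791 strongest summits lay upstream and 1420 at or downstream of the start, with a median 138 bp upstream. In replicate 1 the strongest summit was upstream for all 17 chromatin genes with one. In replicate 2 it was upstream for all but 1 of 15, hpl-2, where it lay 161 bp downstream. A weaker replicate 2 summit of met-1 also lay downstream, at 61 bp and rank 24005.

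Neighbouring starts were compared next. A start on the opposite strand within 1000 bp upstream was annotated for 8 of the 42 chromatin genes, and 3 of these 8 had a thresholded summit, against 131 of 3531 other genes with such a neighbour (3.71%). Of the 34 without one, only met-1 had a thresholded summit, against 192 of 16400 other genes (1.17%). The 3 genes were set-16, jmjd-1.2 and mrg-1, whose summits fall in the window of both genes of the pair. The 5 without a thresholded summit were lin-61, set-17, set-32, mes-6 and dot-1.1.

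Of the 4 thresholded summits, 2 lay on chromosome III, which holds 11 of the chromatin genes, against 61 of 2629 other genes there (2.32%). None of the 6 chromatin genes on the X chromosome had one, against 33 of 2725 other X genes (1.21%). None of the 4 summits was within 200 bp of a tRNA, snoRNA or snRNA gene.

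Just outside the window, 3 chromatin genes had a thresholded summit within 1000 bp of their start. At cbp-1 it lay 877 bp upstream, with a signal of 214.3 and rank 68 in the pooled list, 139.4 and rank 67 in replicate 1, and 74.2 and rank 109 in replicate 2. At lin-40 it lay 888 bp upstream, with a signal of 90.8 and rank 709 in the pooled list, 31.2 and rank 3702 in replicate 1, and 58.1 and rank 190 in replicate 2. No nearer start of a protein-coding gene was annotated for either summit. The cbp-1 summit was thus higher in rank than those of all chromatin genes but set-16.

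The summit at ash-2 lay 448 bp downstream of its outermost start, in an untranslated exon, with a signal of 123.5 and rank 289 in the pooled list, 63.8 and rank 609 in replicate 1, and 52.0 and rank 272 in replicate 2. It was 140 bp upstream of the next annotated start of ash-2 and also in the window of Y17G7B.20 on the opposite strand, 442 bp away. With starts of every transcript counted, ash-2 was added, which made 5 chromatin genes with a thresholded summit.

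**Figure D4:**
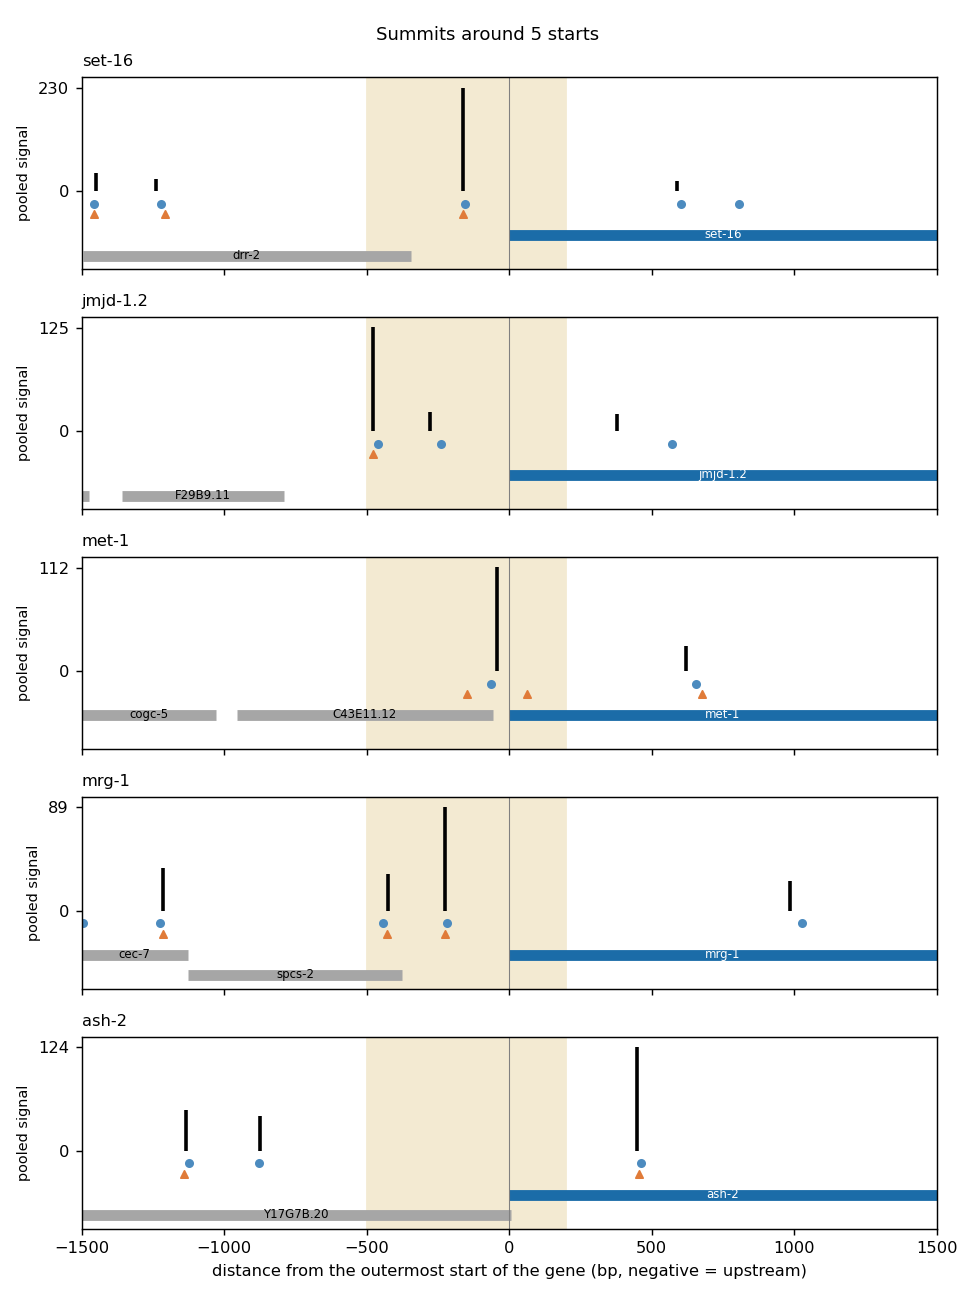
Pooled peak summits (black bars, height is signal) within 1500 bp of the outermost start of set-16, jmjd-1.2, met-1, mrg-1 and ash-2, with replicate 1 summits as circles and replicate 2 summits as triangles. Shading is the promoter window, blue boxes are the named gene and grey boxes its neighbours (upper row same strand, lower row opposite strand); set-16, jmjd-1.2 and mrg-1 face an opposite gene, and the ash-2 summit lies right of the window.

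The bases under the cbp-1 and lin-40 summits are given because these are the thresholded peaks upstream of chromatin genes that the window left out. They are from the same genome, plus strand, at chrIII:9765557-9765707 for cbp-1 and chrV:3704025-3704175 for lin-40, with the same words in capitals.
cbp-1: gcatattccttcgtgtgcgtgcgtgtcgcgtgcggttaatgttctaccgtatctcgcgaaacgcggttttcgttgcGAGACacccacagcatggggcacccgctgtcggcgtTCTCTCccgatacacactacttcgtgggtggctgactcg
lin-40: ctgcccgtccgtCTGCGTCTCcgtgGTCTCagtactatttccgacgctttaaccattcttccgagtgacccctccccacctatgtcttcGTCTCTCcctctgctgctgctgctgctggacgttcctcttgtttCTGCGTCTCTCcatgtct
The lin-40 window held 4 copies of GAGAC and 2 of GAGACGCAG, and the cbp-1 window 1 of GAGAC. The GC content was 56.3% at lin-40 and 58.3% at cbp-1.

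Of 126 further genes listed for chromatin proteins, 119 were found in the annotation. A thresholded summit lay in the window of 7 of these 119 (5.88%, interval 2.88 to 11.6%), against 1.64% of all genes. The highest were sor-3, with a signal of 167.1 and rank 134, and lin-53, which encodes a histone-binding protein shared by several complexes, with 161.1 and rank 150. The arginine methyltransferase gene prmt-5 had 149.6 and rank 182, and the acetyltransferase gene hat-1 131.0 and rank 245. The others were btf-1, set-21 and epc-1, at ranks 425, 481 and 703. The lin-53 summit is shared with nra-2, and that of set-21 was nearer to the ribosomal protein gene rpl-7A. In the whole pooled list 55 of the 119 had a summit (46.2%), against 26.2% of all genes.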

How the data were processed

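Peaks were measured by ChIP-seq in 2 replicates of 1 group. The narrowPeak lists in ce11 were deposited by the authors: a signal per peak, made by their peak caller, on a scale set within each list, a −log10 q-value, and a summit offset. The deposited labels describe the pooled and replicate lists as peaks and background and the 750-peak list as thresholded by irreproducible discovery rate. The aligner and the peak caller were not given in the sources used here. Lists in the ce10 build were not used.

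Summits were assigned with Python 3.11.15, numpy 2.4.6 and pandas 2.3.3 to WBcel235 protein-coding genes of Ensembl release 115, and Wilson intervals came from scipy 1.17.1. Figures were drawn with matplotlib 3.10.9. The assignment was tested on simulated data. Members, roles and lists were chosen with earlier results of these data known, so no test was made. Full values are given for members in the thresholded list, those among the 3000 strongest pooled peaks and the first of each role, and also for utx-1 and mes-2, which fall outside this rule and were chosen with their values known. Genes just outside the window, and the words GAGAC and GAGACGCAG, were picked with their values known. Alternatives changed the window, the start, the assignment, the list and the replicates.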

Additional observations from a re-analysis of the deposited data

How the results depend on the processing

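A total of 83 values were recomputed under the alternatives: 58 stayed within the limits set for counts and shares, and 25 moved. These limits were loose for small counts: the main count of 4 chromatin genes was held the same at 3, 5 and 6. The 58 also include role counts that were 0 and stayed 0. The main values were 4 chromatin genes with a thresholded summit, and 1.62% of other genes. With a window of 200 bp upstream to 100 bp downstream 2 chromatin genes remained (0 demethylase, 0 heterochromatin), against 0.773% of others. With 1000 bp upstream to 200 bp downstream cbp-1 and lin-40 were added (1 acetylation and 1 remodelling gene), making 6 chromatin genes against 2.15% of others. Counting a summit only for the nearest start left 2, met-1 and set-16 (0 demethylase, 0 heterochromatin), against 1.32%. The stronger 375 peaks of the list left 2, jmjd-1.2 and set-16 (1 methyltransferase, 0 heterochromatin), against 0.773%. The share of other genes was 1.95% with any overlap of the interval, 3.05% with the 1500 strongest pooled peaks, 1.4% without summits near tRNA, snoRNA or snRNA genes and 2.16% with the first gene of a same-strand run included, an alternative chosen after seeing the data. In these 4 the chromatin count stayed at 4. To leave out a replicate, the thresholded list was replaced by the 750 strongest peaks of the other replicate, the counts already given above. This gave 3 to 4 chromatin genes, 0 to 1 heterochromatin genes (mrg-1 was lost without replicate 2) and 1.37 to 1.58% of others. The median rank percentile of chromatin genes in the pooled list, counting genes with no summit last, was 63.1, the value of a gene with no summit. It was 57.0 in the narrow window, 64.9 with any transcript start and 60.8 to 63.0 with a replicate left out. Each of these is again the value of a gene with no summit in that setting. That value follows from how many of all genes have a summit, so these shifts say nothing of the chromatin genes. In the wide window 28 of 42 chromatin genes had a pooled summit, against 17 in the main one, and the median was 16.7. Why more chromatin genes had a summit in the wide window was not tested. No paired analysis was possible because there is 1 group. Depth is unknown, so no limit from it can be given.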

Other observations

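Moving the upstream edge of the window from 500 to 1000 bp gave a pooled summit to 11 of the 25 chromatin genes without one (44%), against 1717 of 14720 other genes (11.7%). The 11 were cbp-1, lin-40, spr-1, hda-1, lin-13, ash-2, met-2, swsn-4, mes-3, lsd-1 and mes-6, and their summits lay 515 to 935 bp upstream. Of these the deacetylase gene hda-1, at rank 3248, and the CoREST gene spr-1, at rank 1921, came after cbp-1 and lin-40. The rest ran from rank 4587 at lin-13 down to 18719 at mes-3, 28188 at lsd-1 and 29924 at mes-6. The mes-6 signal of 16.5 is at the floor of this list, which holds peaks and background. No test was made of this difference.

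Genes of C. elegans are often transcribed in runs from a start further upstream. Of the chromatin genes, 8 of 42 (19%) stood behind another protein-coding gene on the same strand with gaps of at most 500 bp, against 4162 of 19931 other genes (20.9%). These 8 were hpl-2, met-1, met-2, set-2, wdr-5.1, spr-5, hda-2 and hda-3. The first gene of the run had no thresholded summit for any of the 8, and had one for 114 of the 4162 other genes (2.74%). For met-1, which has a thresholded summit at its own start, the run began at tufm-2, 6444 bp upstream, with rank 5570 in the pooled list. Which start met-1 is transcribed from was not tested. The strongest pooled summit at such a first gene was at C14B1.2, before wdr-5.1, with rank 1311, -452 bp from its start.

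Words were also counted at a fixed place 193 bp upstream of the start, whether or not a peak is there. GCGCG occurred at 13 of the 42 chromatin genes (31.0%), against 8.64% of all protein-coding genes, and GAGAC at 11 (26.2%), against 18.5%. GAGACGCAG was at 9.52% against 1.58%, TTTGAA at 54.8% against 41.2%, and GAGAGA at 8 genes against 11.1%. CCCGCC (4.76% against 3.17%) and TATAAA (23.8% against 19.3%) differed less. TGATAA was lower (9.52% against 16.5%), and CACGTG, at 1 chromatin gene, was about equal (2.38% against 2.5%). GAGAC and GAGACGCAG were chosen after reading summit windows, which overlap the fixed windows at set-16 and mrg-1, so their counts are a description only. The median GC content of the fixed windows was 33.8% for the chromatin genes and 33.8% for all genes.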
